A study of Drosophila melanogaster with 12 samples.

Results

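The genes described here are rpr (reaper), W (better known as hid), grim and skl (sickle), the proapoptotic genes that the study ties to the microRNA miR-11. They were taken by symbol from the authors' deposited table of fold changes, where all 4 were found among 13281 genes, each on 1 row. Total RNA came from eye discs of Drosophila melanogaster larvae kept at 25 degrees Celsius, with 3 biological replicates of each of 4 genotypes, 12 Affymetrix arrays in all. Every genotype carried the GMR-Gal4 driver, which switches on UAS transgenes behind the morphogenetic furrow, the moving front at which disc cells start to differentiate. The control was GMR-Gal4/+, the miR-11 genotype was GMR-Gal4/UAS-miR-11, and the dE2F1/dDP genotype was GMR-Gal4/+; UAS-dE2F1,UAS-dDP/+. The last genotype had UAS-miR-11 opposite the driver together with UAS-dE2F1,UAS-dDP/+, and so carried all 3 transgenes. The labels name no inert UAS transgene in the control and no separation of cells behind the furrow from those ahead of it. In such bulk RNA, fewer cells that express a gene and less RNA per cell cannot be told apart. Single arrays stood apart from others of their genotype on the first principal component of the arrays: miR-11 replicate 3 was at -83.3 (the others at 34.02 and -20.6), control replicate 1 at -49.8 (1.87 and 9.33) and dE2F1/dDP replicate 3 at -34.4 (49.9 and 44.7). Control replicate 1 enters every value over the control. dE2F1/dDP replicate 3 enters every value that uses that genotype, the differences for added miR-11 among them. No member value, those of skl with miR-11 and of W with dE2F1/dDP included, could be recomputed without these arrays.

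In flies, cell death is held back by IAP proteins, chiefly the Diap1 protein of the gene th, which block caspases. The products of rpr, hid, grim and skl carry a short IAP-binding motif at their amino terminus, bind IAPs and so release caspases, and transcription of these genes is a main control point of apoptosis. dE2F1 and dDP form a transcription factor for S phase genes that can also provoke cell death in the eye. The RefSeq gene table places mir-11 inside the span of E2f1, the gene of dE2F1, so the microRNA and the factor come from 1 locus. MicroRNAs can lower translation with or without loss of the mRNA, and arrays measure mRNA only.

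None of the 4 genes was called in any genotype. A call here is a rank product pfp under 0.05 in the direction of the fold change, where pfp is the share of false positives that the authors expect among genes ranked at least as high, an estimate that can exceed 1. With miR-11, 0 of 4 members were called in the authors' deposited table, against a background of 0.452% of all genes. With dE2F1/dDP 0 of 4 were called against 0.346%, and with all 3 transgenes 0 of 4 against 0.851%, in the authors' deposited table. At those backgrounds a count of 0 among 4 genes says nothing particular about them. At the authors' unadjusted rank product p under 0.05 in the direction of the fold change, the count was also 0 of 4 in each genotype, where 6.93%, 12.9% and 14.5% of all genes passed. The 4 genes are described below by the sizes of their changes.

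rpr, the founding member of the group, was slightly below the control with miR-11 and near it in the other genotypes. Its log2 fold change in the authors' deposited table was -0.17 with miR-11 (0.887-fold), 0.07 with dE2F1/dDP (1.05-fold) and 0.03 with all 3 transgenes (1.02-fold). For rpr with miR-11, the authors' deposited table gives a rank product p of 0.221 for lower expression (pfp = 1.21). With dE2F1/dDP it gives rpr a p of 0.291 for higher expression (pfp = 1.13), and with all 3 transgenes 0.243 (pfp = 1.06), again from the authors' deposited table.

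W, or hid, the member that is needed for much of the normal cell death in the fly eye, had the highest value of the 4 with dE2F1/dDP. The authors' deposited table put W at log2 0.33 with dE2F1/dDP (1.26-fold, rank product p = 0.153 for higher expression, pfp = 0.966). The value for W was 0.07 with miR-11 (1.05-fold, p = 0.265) and 0.05 with all 3 transgenes (1.04-fold, p = 0.407) in the authors' deposited table. Among all genes, 85.8% had a lower log2 fold change than W with dE2F1/dDP, so the value lies inside the bulk of the distribution.

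grim, whose protein shares the IAP-binding motif with that of rpr, had the smallest departures of the 4 with miR-11 alone and with dE2F1/dDP alone. In the authors' deposited table grim stood at log2 -0.05 with miR-11 (p = 0.616 for lower expression), -0.05 with dE2F1/dDP (p = 0.578) and 0.08 with all 3 transgenes (p = 0.406 for higher expression), rank product values that were not called. Between 69.4% and 81.0% of all genes had a larger absolute change than grim in each of these comparisons.

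skl, the fourth member of the group, had the lowest value in each genotype. Its log2 fold change in the authors' deposited table was -0.42 with miR-11 (0.746-fold), -0.33 with dE2F1/dDP (0.796-fold) and -0.32 with all 3 transgenes (0.801-fold). For skl the authors' deposited table gives rank product p-values for lower expression of 0.0614 (pfp = 1.50), 0.0987 (pfp = 0.949) and 0.0558 (pfp = 0.762) in the same order. With miR-11, 3.39% of all genes had a lower value than skl, and 11.7% and 10.9% did in the other genotypes. These 3 values share the same 3 control arrays and are not independent of each other. Between transgenic genotypes, where the control cancels, skl differed little: by log2 0.01 when miR-11 was added to dE2F1/dDP, 0.10 when dE2F1/dDP was added to miR-11, and 0.09 between dE2F1/dDP and miR-11.

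**Figure D1:**
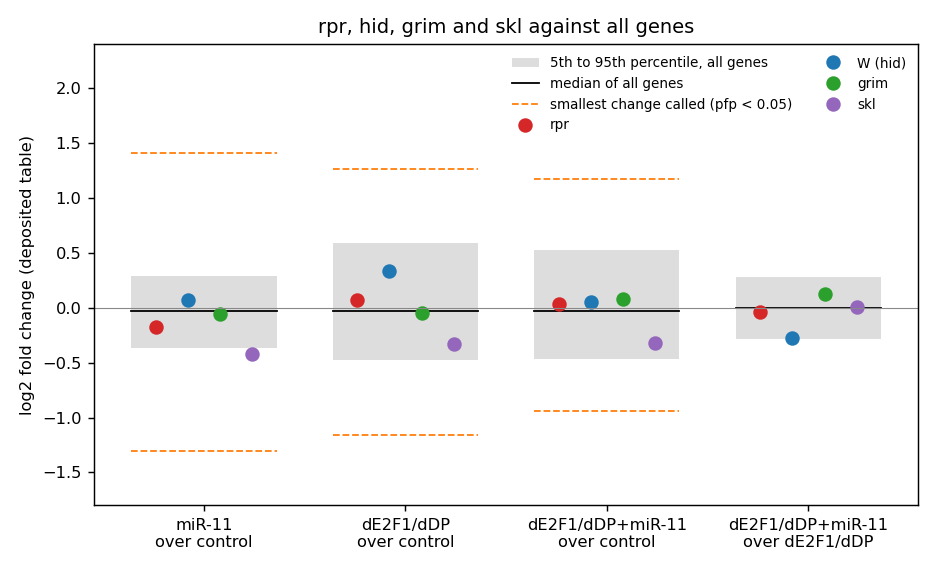
Log2 fold change of each member (points) in the authors' deposited table for the 3 transgenic genotypes over the control, and the difference when miR-11 is added to dE2F1/dDP. Grey boxes span the 5th to the 95th percentile of 13281 genes, black lines mark their median, and dashed lines mark the smallest rise and fall that were called. In the 3 genotypes every member lies far inside the dashed lines, and skl with miR-11, at -0.42, is the value that falls below its grey box.

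No gene with a change of this size was called. The smallest absolute log2 change called in the authors' deposited table was 1.30 with miR-11 (2.47-fold), 1.16 with dE2F1/dDP (2.24-fold) and 0.94 with all 3 transgenes (1.91-fold). Of the 12463 genes whose change with miR-11 was no larger than that of skl, 0 were called by the rank product test. The same count was 0 of 9862 genes with dE2F1/dDP and 0 of 10117 with all 3 transgenes, taking the largest member change of each as the bound. That call therefore could not separate changes of the size seen in the members from no change.

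No standard error can be given for the members, since the table holds no value per array and the probe sets of the arrays could not be tied to genes here. The arrays do give the size of error that is usual. Over 18769 probe sets the standard error of a difference between 2 genotypes had a median of 0.17 log2 units (limma, 12 arrays), with 0.09 and 0.55 as its 5th and 95th percentiles. The matching 95% interval reached a median of 0.38 to either side of the difference. With probe sets split by signal into 3 equal groups, this reach was 0.27 in the lowest and 0.63 in the highest. The signal of the 4 genes on the arrays, and so their place among these groups, is not known here. Of the 16 member values given for the 3 genotypes and for added miR-11, 15 are smaller than 0.38, and that of skl with miR-11 is larger. This count depends on the reach chosen. Beyond 0.27 lie skl in all 3 genotypes (-0.42, -0.33 and -0.32), W with dE2F1/dDP (0.33) and W for added miR-11 (-0.28). Every member value is smaller than 0.63.

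Both rank product p-values of a gene together carry information on its replicates. The rank product test ranks each gene in every pairing of arrays, so a gene whose rank swings between pairings gets low p-values in both directions, and a gene that holds its rank near the middle gets high ones. On the arrays, the sum of both p-values, recomputed over 9 pairings, ran against the SD within genotypes. Among probe sets with an absolute log2 change under 0.5, Spearman's rho was -0.90 for miR-11, -0.85 for dE2F1/dDP and -0.84 for all 3 transgenes. This is a description over probe sets, which share arrays. In the comparison with all 3 transgenes, the median SD was 0.34 log2 units in the 25% of these probe sets with the lowest sum and 0.09 in the 25% with the highest.

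This measure differed between rpr and grim. For rpr with all 3 transgenes, the authors' deposited table gives p = 0.243 for higher and 0.379 for lower expression although the log2 change was only 0.03. The sum of 0.622 was undercut by 3.20% of all genes. With miR-11 and dE2F1/dDP the sums of rpr were 0.866 and 0.918, undercut by 26.9% and 24.1% of genes. The sums of grim were 1.31, 1.25 and 1.24 in the order given, above those of 99.1%, 86.4% and 88.2% of genes. W lay between them at 0.979, 1.08 and 0.901, and skl between 0.938 and 1.01. By this measure the rank of rpr with all 3 transgenes varied between array pairings more than that of most genes, and the rank of grim less. The usual error also followed signal, with a median standard error of 0.12 log2 units in the lowest of the 3 signal groups and 0.28 in the highest. The signal of grim is not known here, so its high sums do not show that it was well measured.

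**Figure D2:**
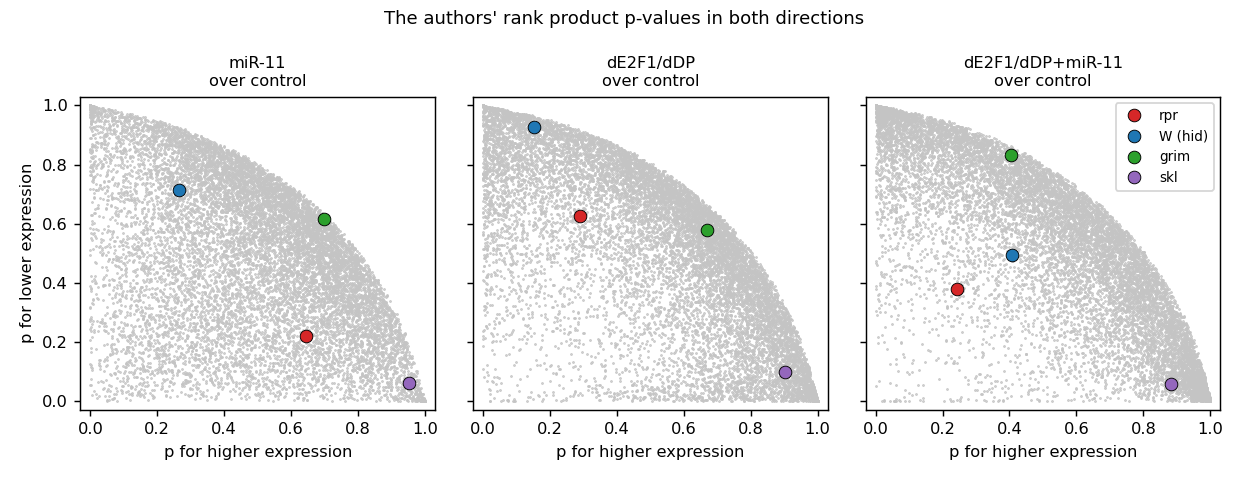
The authors' rank product p for higher expression (horizontal) against p for lower expression (vertical) in each transgenic genotype over the control, for all genes (grey) and the members (coloured). Genes near the outer arc keep their rank between array pairings, and genes toward the lower left corner change it. grim lies at or close to the arc with miR-11, at 0.697 and 0.616, and somewhat inside it in the other panels, and rpr lies well inside it with all 3 transgenes, at 0.243 and 0.379.

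The effect of miR-11 was then set side by side without and with dE2F1/dDP. The value without is miR-11 over control, and the value with is the difference of the deposited fold changes of the triple genotype and of dE2F1/dDP, in which the control cancels. These use separate arrays. The table holds no test of the second, so it is given without one. W was the member with the lowest value on the dE2F1/dDP background: log2 -0.28 (0.824-fold), against 0.07 without dE2F1/dDP. Of all genes, 5.21% had a lower difference than W, and the 5th percentile of all genes was -0.29. rpr was at -0.04 with dE2F1/dDP and -0.17 without. skl was at 0.01 with dE2F1/dDP and -0.42 without. grim was at 0.13 with dE2F1/dDP (1.09-fold) and -0.05 without. So 2 of 4 members were lower when miR-11 was added to dE2F1/dDP, against 50.1% of all genes, and 3 of 4 with miR-11 alone, against 56.3%. The median of the members was -0.01 with dE2F1/dDP, against 0.00 over all genes, and -0.11 without, against -0.03. rpr was the member below 0 in both settings.

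**Figure D3:**
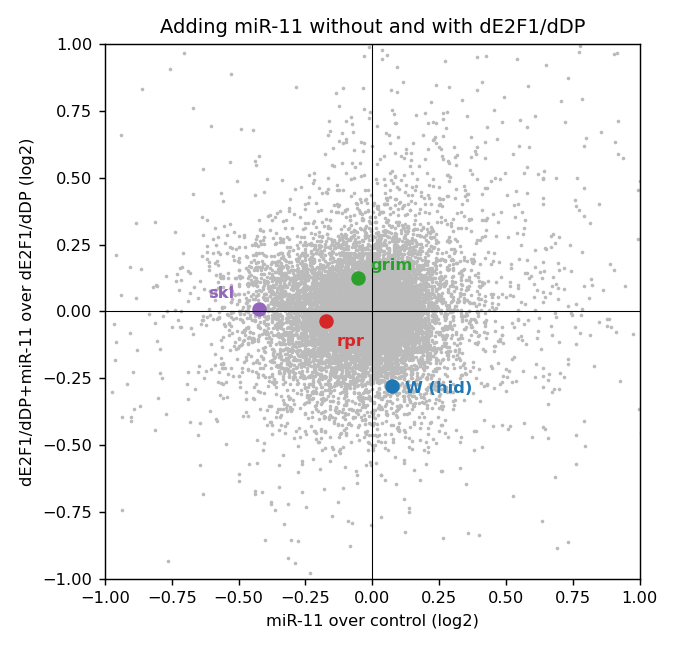
Log2 change on adding miR-11 to the driver control (horizontal) and to dE2F1/dDP (vertical), from the authors' deposited table, for all genes (grey) and the members (coloured); 182 genes lie outside the axes, which end at 1 log2 unit. W is low on the vertical axis (-0.28) and skl on the horizontal axis (-0.42), and no member is low on both.

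The response to dE2F1/dDP can be read the same way without and with miR-11. W stood at log2 0.33 over the control and at -0.02 over miR-11 alone when dE2F1/dDP was present. rpr stood at 0.07 and 0.20, grim at -0.05 and 0.13, and skl at -0.33 and 0.10. The departure from additivity, the triple genotype minus both single effects, was -0.35 for W and 0.43 for skl, with 6.20% of genes below W and 94.1% below skl. It was 0.14 for rpr and 0.18 for grim. The control arrays do not cancel in this quantity. For skl the transgenic genotypes differed from each other by only 0.01 to 0.10, and each lay below the control. The 5th and 95th percentiles of all genes were -0.40 and 0.47, so all 4 members lay inside them, and the table gives no test of this quantity.

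Transcripts from other tissues differed between the same arrays, and their part in the member values was not tested. When miR-11 was added to dE2F1/dDP, 9 of 9 salivary gland markers had a negative difference (median log2 -2.61) and 7 of 8 muscle markers a positive one (median 0.69). Fat body markers were split, with 4 of 8 negative (median 0.01). With miR-11 alone, 9 of 9 salivary markers were positive in the authors' deposited table (median 1.60, 2 called higher). So were 7 of 8 fat body markers (median 1.20, 2 called higher and 1, Obp44a, called lower). With dE2F1/dDP, 7 of 9 salivary markers were positive and 2 negative (median 1.20, 3 called higher), the negative ones being ng1 (-0.79) and ng3 (-1.35), in the authors' deposited table. Fat body markers had 2 of 8 positive and 6 negative there (median -0.48, 1 called lower). Obp44a was the 1 gene of the fat body list called lower in each genotype, at -1.42, -1.68 and -1.47 for miR-11, dE2F1/dDP and the triple genotype. With miR-11 it ran against the other 7 genes of that list, which were all positive, so its calls do not stand for the list. With all 3 transgenes, 5 of 9 salivary markers were called lower (median -1.52) and 2 of 8 muscle markers higher (median 0.76) in the authors' deposited table. Hemocyte markers had 1 of 6 called higher with miR-11 and 1 with all 3 transgenes, and their median was -0.02, 0.13 and 0.41 for miR-11, dE2F1/dDP and the triple genotype. Glia markers had 0 of 6 called in each genotype, with 2, 5 and 6 of 6 positive and medians of -0.11, 0.44 and 0.52 in that order. The 12 eye disc markers were all in the table with 0 called, 6, 11 and 11 of 12 positive and medians of 0.00, 0.47 and 0.34 in that order. Their levels are not given there, so the label of the tissue could not be checked by level.

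Of the genes of the transgenes, Dp was called and E2f was not. The authors' deposited table shows that Dp, which encodes dDP, rose by log2 2.85 in the dE2F1/dDP genotype and by log2 2.73 in the triple genotype. E2f was not called in any genotype, at 1.27-fold, 1.26-fold and, with miR-11, 1.03-fold in the authors' deposited table. w, the usual marker of such transgenes, rose 5.10-fold and 5.97-fold there and was at 2.28-fold with miR-11 (not called, pfp = 0.0765) in the authors' deposited table. Mature miR-11 was not measured.

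Known S phase targets of dE2F1 had a higher median than the proapoptotic genes in both dE2F1/dDP genotypes. All 8 had a positive log2 fold change with dE2F1/dDP in the authors' deposited table, from 0.30 for Mcm5, a subunit of the replicative helicase, to 0.99 for CycE, the cyclin that drives S phase entry. Their median was 0.61, against 0.01 for the 4 proapoptotic genes and -0.03 over all genes, and 0 of 8 were called (0.346% of all genes). At the authors' unadjusted rank product p under 0.05, 5 of 8 were higher with dE2F1/dDP and 7 of 8 with all 3 transgenes. Of all genes, 12.9% and 14.5% passed there in either direction. With all 3 transgenes the median of the targets was 0.61 and that of the proapoptotic genes 0.04. Eye disc and glia markers had positive medians in the same genotypes, as given above, and the part of tissue composition in the target medians was not tested. RnrL, the large subunit of ribonucleotide reductase, was at 1.52-fold with dE2F1/dDP and 1.77-fold with all 3 transgenes (pfp = 0.246) in the authors' deposited table. CycE with all 3 transgenes was at log2 1.04 (pfp = 0.0668). Of the members, W at 0.33 reached the range of these targets with dE2F1/dDP, and none did with all 3 transgenes. With miR-11 alone all 8 targets were negative (median -0.26), and 0 of 8 were called.

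Of the 4 IAP family and IAP-related genes, th, Iap2, Bruce and Det, 0 were called in each genotype. The shares of all genes called were 0.452%, 0.346% and 0.851% for miR-11, dE2F1/dDP and the triple genotype. At the authors' unadjusted rank product p under 0.05, 1 of the 4 was lower with miR-11, 1 was higher with dE2F1/dDP and 0 passed with all 3 transgenes. For miR-11, dE2F1/dDP and the triple genotype in that order, th stood at log2 -0.17, -0.02 and -0.15 in the authors' deposited table. Bruce, a large IAP-related ubiquitin enzyme, was at -0.27, 0.43 and 0.44 in that order in the authors' deposited table, with its smallest rank product p of 0.0326 with dE2F1/dDP (pfp = 0.67). Iap2, a second IAP, was at -0.07, -0.38 and -0.30 there.

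Caspases and their adaptor Ark, which act below the IAPs, had 0 calls among the 7 genes found. At the authors' unadjusted rank product p under 0.05, 1 of the 7 was higher with dE2F1/dDP and 0 passed in the other genotypes. In the same order of genotypes, the median log2 fold change of the 7 genes was 0.02, 0.16 and -0.08. dream, a caspase gene now called Strica, was at 0.39, 0.53 and 0.28 in the authors' deposited table (smallest rank product p = 0.0277, with dE2F1/dDP, pfp = 0.655). Damm, another caspase gene, was at 0.33, 0.21 and 0.34 there. Nc, the initiator caspase Dronc, was at -0.26, 0.16 and -0.08, and the effector caspase gene Ice at -0.03, -0.13 and -0.19, in the authors' deposited table. Of the 6 Bcl-2 family and mitochondrial genes 0 were called. With all 3 transgenes 1 of the 6 was higher and 1 lower at the authors' unadjusted rank product p under 0.05, and 0 passed in the other genotypes. Buffy, a Bcl-2 family gene, was at 0.20, -0.36 and -0.57 in the authors' deposited table (pfp = 0.495 with all 3 transgenes). Cyt-c-p, a cytochrome c gene, was at 0.12, 0.18 and 0.35 there.

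Genes known to act on transcription of the proapoptotic genes or on their products were set beside them. Of 28 such genes 0 were called in any genotype in the authors' deposited table, where 0.346% to 0.851% of all genes were called. At the authors' unadjusted rank product p under 0.05, 10 of the 28 were higher and 0 lower with dE2F1/dDP. With all 3 transgenes 7 were higher and 1 lower, and with miR-11 1 was higher and 1 lower. Of all genes, 12.9%, 14.5% and 6.93% passed in that order, in either direction. With dE2F1/dDP 24 of the 28 had a positive change (median log2 0.47) and with all 3 transgenes 20 (median 0.32). With miR-11 10 were positive and 17 negative (median -0.03). The authors' deposited table has br, an ecdysone-induced transcription factor gene, at 2.06-fold with dE2F1/dDP (pfp = 0.224) and at 1.35-fold with all 3 transgenes. CG17836, which encodes the stress-response factor Xrp1, was at 0.94 and 0.82 (pfp = 0.308 and 0.302) there. p53, the damage-response activator of rpr, was at -0.24, -0.37 and -0.43 for miR-11, dE2F1/dDP and the triple genotype in the authors' deposited table. Its smallest rank product p there was 0.0329, for lower expression with all 3 transgenes (pfp = 0.648). The positive medians ran with those of the eye disc markers, at 0.47 with dE2F1/dDP and 0.34 with all 3 transgenes (0.00 with miR-11), and the part of tissue composition in them was not tested.

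**Figure D4:**
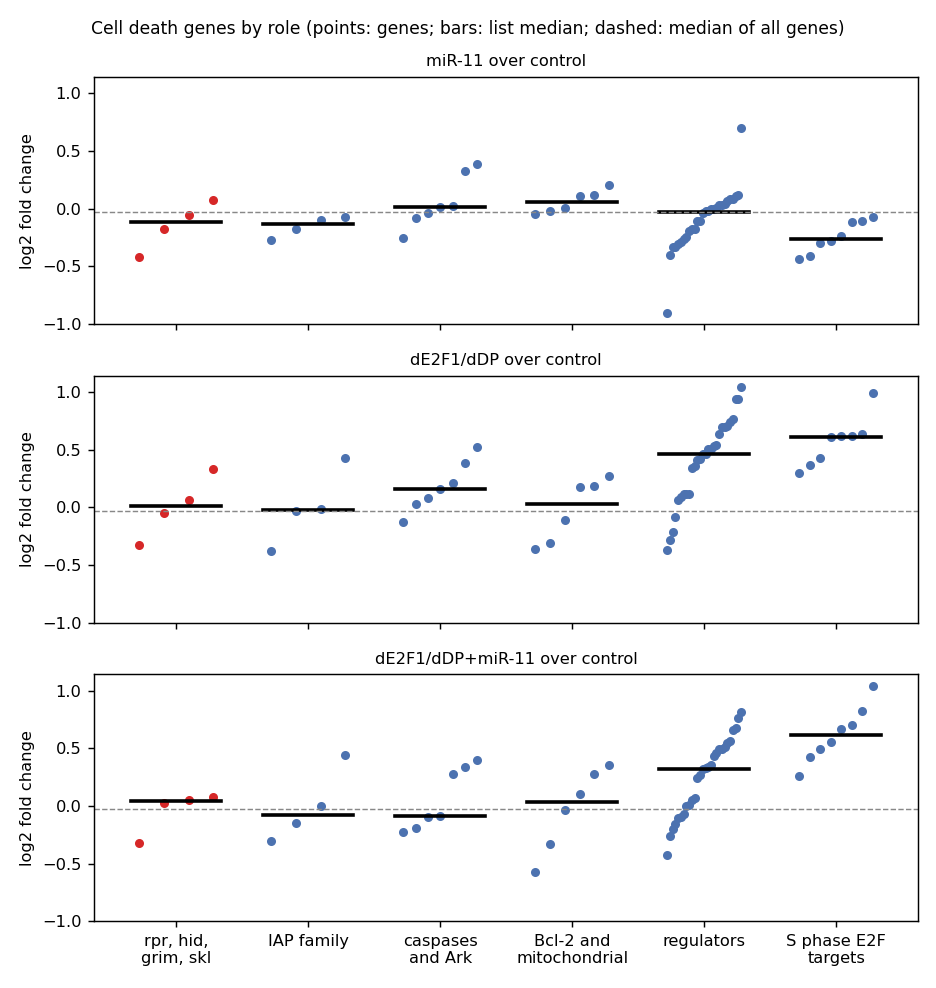
Log2 fold change of each gene of 6 cell death and E2F lists (points, sorted within a list) in the 3 transgenic genotypes over the control, from the authors' deposited table; bars are list medians and dashed lines the median of all genes. The S phase targets (median 0.61 in both dE2F1/dDP genotypes) and the regulators (0.47 and 0.32) sit above the dashed line there, while the 4 proapoptotic genes (red) spread around it.

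The 4 genes lie in 1 stretch of chromosome arm 3L. In RefSeq's order of protein-coding genes, grim, rpr and skl follow each other directly, and 4 genes (CG7320, CheA75a, CG5103 and CG13700) lie between W and grim. The table names no genome build, so only this order is used. Those 4 genes had log2 fold changes between -0.18 and 0.19 over the 3 genotypes in the authors' deposited table, and none was called. The values of skl (-0.42 to -0.32) lay below that range, and W with dE2F1/dDP (0.33) above it. Genes on the outer sides of the members were mixed, some reaching slightly beyond the range of those between W and grim and others staying within it. CG32196, next to skl, was at 0.11, -0.16 and -0.19 for miR-11, dE2F1/dDP and the triple genotype, and CG4306 beyond it at 0.23, -0.00 and -0.23. On the side of W, CG13699, next to W, was at -0.01, 0.12 and 0.05 in that order. Beyond it, CG7330 was at -0.12, -0.26 and -0.08, and gk at 0.03, 0.08 and -0.07. rpr, which also adjoins skl, stood between -0.17 and 0.07. The difference from neighbouring genes was not tested.

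**Figure D5:**
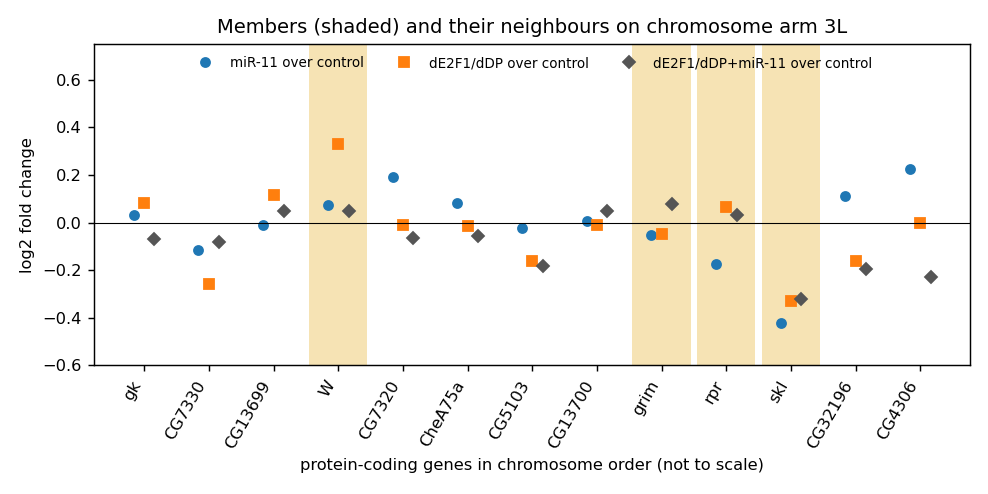
Log2 fold change in the authors' deposited table for protein-coding genes in their order on chromosome arm 3L, with the 4 members shaded and 1 symbol per genotype; the spacing is not to scale. The 3 symbols of skl lie together between -0.42 and -0.32, and the values of W differ between dE2F1/dDP (0.33) and the other genotypes.

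Genes with the most similar pattern were found by Euclidean distance over the 3 deposited log2 fold changes. Nearest to rpr were CG3689 (distance 0.022) and CG7146 (0.025), nearest to W were CG33129 (0.026) and pps (0.03), and nearest to grim were RpS12 (0.0075) and CG31327 (0.019). Nearest to skl were CG18446 (0.028) and ImpE3 (0.05). Within a distance of 0.1 there were 467 genes around grim, 200 around rpr, 54 around W and 20 around skl. Patterns like those of grim and rpr were thus common in the table, and that of skl was the least common of the 4. No member was the nearest gene of another.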

How the data were processed

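Labelled cRNA from 100 ng of total RNA was hybridised to Affymetrix arrays, per the labels' protocols. The deposited per-array values are log2 expression per probe set; the package affy is named per the submitters' processing notes, with background and normalization settings not stated. The authors' deposited table gives, per the file headers, an average log2 fold change, p-values for higher and lower expression and pfp (a score that can exceed 1, per the deposited note). No version or setting behind either is recorded in the labels, headers or note. Among the 301 genes that changed by 1 log2 unit or more, 100% matched some probe set to within 0.01 in every comparison (0% with comparisons exchanged).

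Probe sets could not be named, so limma's lmFit and eBayes (version 3.58.1, R 4.3.3; two-sided tests with Benjamini-Hochberg adjustment) were used for the usual error and for 4 comparisons over 18769 probe sets, after 183 control probe sets were left out. It called 29, 12, 17 and 7 probe sets for miR-11, dE2F1/dDP and all 3 transgenes over control and all 3 over dE2F1/dDP (477, 701, 550 and 303 at an unadjusted p under 0.05). It was tested on simulated data with independent noise for each probe set, which does not cover errors shared between probe sets. Differences between transgenic genotypes were formed from the deposited fold changes. Rank product p-values were recomputed over 9 pairings with a gamma approximation in Python 3.11.15 (scipy 1.17.1).

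Members and gene lists were chosen with earlier results of these data known. Named genes were the members, Dp, E2f and w, called members of each list or else its 2 smallest p-values, the 2 nearest patterns per member, and genes between members. Other genes of the lists with values given here (th, Nc, Ice, p53, Mcm5) were chosen after their values were seen, as were CG32196, CG4306, CG7330, CG13699 and gk beside the members. The caspase gene decay was not analysed here, and grh, listed on more than 1 row, was left out. Arrays of 1 genotype correlated at 0.942 to 0.995 and arrays of different genotypes at 0.927 to 0.995. A first principal component with 63.1% of the variance had 22.7% of its spread between genotypes. The labels name no batch, so replicate numbers were not taken as pairs. Of 18 same-number pairs of arrays, 6 had deviations correlated above 0.1. Pairs with different numbers were not counted, so this does not show whether the numbers mark a batch. The number of arrays limits the precision.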

Additional observations from a re-analysis of the deposited data

How the results depend on the processing

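The count of members called stayed at 0 of 4 in each genotype with pfp under 0.10 and with the unadjusted p under 0.05. Relative to the median of all genes, 0 of 16 member values changed sign. Those medians were small (-0.03 in each genotype over the control and -0.0033 for added miR-11), so this shift could not reverse values of this size. No member value could be recomputed without single arrays or with other normalization, because the table holds no array values; the replicate block could be run on probe sets only. The other alternatives bear on the probe set calls. The fit on the compared groups alone called 10 with miR-11 (29 in the fit to all arrays), 4 with dE2F1/dDP (12) and 4 for all 3 transgenes over dE2F1/dDP (7), with fewer arrays behind the spread. With the replicate block, dE2F1/dDP over control gave 7. Leaving out 1 array at a time gave 14 (without control replicate 3) to 45 (without miR-11 replicate 1) for miR-11, 5 (dE2F1/dDP replicate 1 left out) to 19 (miR-11 replicate 3 left out) for dE2F1/dDP, 9 (without control replicate 3) to 18 for all 3 transgenes over control, and 4 to 7 for all 3 over dE2F1/dDP. The cause was not tested.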
